A study of Arabidopsis thaliana with 6 samples.

Results

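ATP sulfurylase joins sulfate to ATP and so activates it, the first enzymatic step by which plants take sulfate into cysteine, methionine and glutathione. In Arabidopsis thaliana the enzyme is encoded by 4 genes, APS1 (AT3G22890), APS2 (AT1G19920), APS3 (AT4G14680) and APS4 (AT5G43780). The genes were chosen by name, and their probe sets were looked up by gene symbol or locus in the array's annotation. A probe set is a group of probes on the array that are read together as 1 value. The annotation names 1 gene, several genes or none for it. Of the 4 genes, 2 had a named probe set, APS4 and APS3, out of 13356 genes with a probe set that names a single gene. APS1 and APS2 were not analysed here.

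The transcripts were measured in microdissected root meristems at 7 days after sowing, from 3 samples of 35S:miR396 plants, which overexpress the microRNA miR396, and 3 samples of WT plants. The 35S promoter of a plant virus is active in most plant tissues. All plants were untreated, grew upright in long days on Murashige and Skoog salts with sucrose, a medium that supplies sulfate, and were labelled as biological replicates. The labels do not say whether replicates came from separate cultures or how many transgenic lines were used, so each p-value reflects only how far these samples vary, and that variation may be technical.

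MicroRNAs are short RNAs that pair with messenger RNAs and cause them to be cut or poorly translated. The transcripts of APS1, APS3 and APS4 are known targets of another microRNA, miR395, together with the transcript of the sulfate transporter SULTR2;1. The microRNA miR395 accumulates when sulfate is scarce, and APS2 is not among its known targets. The known targets of miR396 are chiefly transcription factors of the GRF family. Neither microRNA was measured here, and the SULTR2;1 and GRF transcripts had no named probe set, so the transgene could not be checked through its targets.

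Among all 11364 tested probe sets the array of replicate 2 of 35S:miR396 lay closest to WT on the first principal component, with a score of 11.3 against 37.9 and 27.2 for replicates 1 and 3 of 35S:miR396 and -22.9, -24.6 and -28.9 for WT replicates 1, 2 and 3. Of 9 root meristem markers 2 had a named probe set. Their summed log2 level lay between 12.16 and 13.02 in 35S:miR396 and between 10.72 and 11.22 in WT. The difference lay in BBM, a transcription factor of the root stem cell niche (log2 fold change 1.50 ± 0.14, SE, adjusted p = 0.00122 by limma), while JKD, a zinc-finger factor of the ground tissue, stood at -0.07 ± 0.17 (SE). The root hair expansins EXPA7 and EXPA18, the measured ones of 9 markers of mature root cells, stood at or near the array's lowest value in both groups, with a highest value of 2.38, and none of 4 leaf markers had a named probe set. Whether the cell make-up of the dissected tissue took part in the results below was not tested, and in bulk tissue fewer cells of a type and less RNA per cell cannot be told apart.

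APS4 was higher in 35S:miR396 meristems, at close to double its WT level, and APS3 did not pass the test. APS4 had log2 values of 7.57, 7.13 and 7.19 in replicates 1, 2 and 3 of 35S:miR396, against 6.54, 6.45 and 6.03 in those of WT. Every 35S:miR396 array lay above every WT array, with replicate 1 the highest of its group and WT replicate 3 the lowest of the 6. The mean was 7.30 ± 0.24 in 35S:miR396 and 6.34 ± 0.27 in WT (SD, n = 3 each). The log2 fold change was 0.96 ± 0.17 (SE), a 1.94-fold rise with a 95% interval from 1.47-fold to 2.57-fold (adjusted p = 0.0108 by limma, adjusted over all tested probe sets by the Benjamini-Hochberg method).

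APS3 had log2 values of 6.19, 6.30 and 6.16 in 35S:miR396, against 6.31, 6.15 and 6.36 in WT. The groups overlapped, and the lowest value of all was WT replicate 2. The mean was 6.22 ± 0.07 in 35S:miR396 and 6.27 ± 0.11 in WT (SD, n = 3 each), a log2 fold change of -0.06 ± 0.10 (SE, adjusted p = 0.691 by limma). The 95% interval of its fold ran from 0.823 to 1.12, so a rise of the size measured for APS4 lay outside it.

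**Figure D1:**
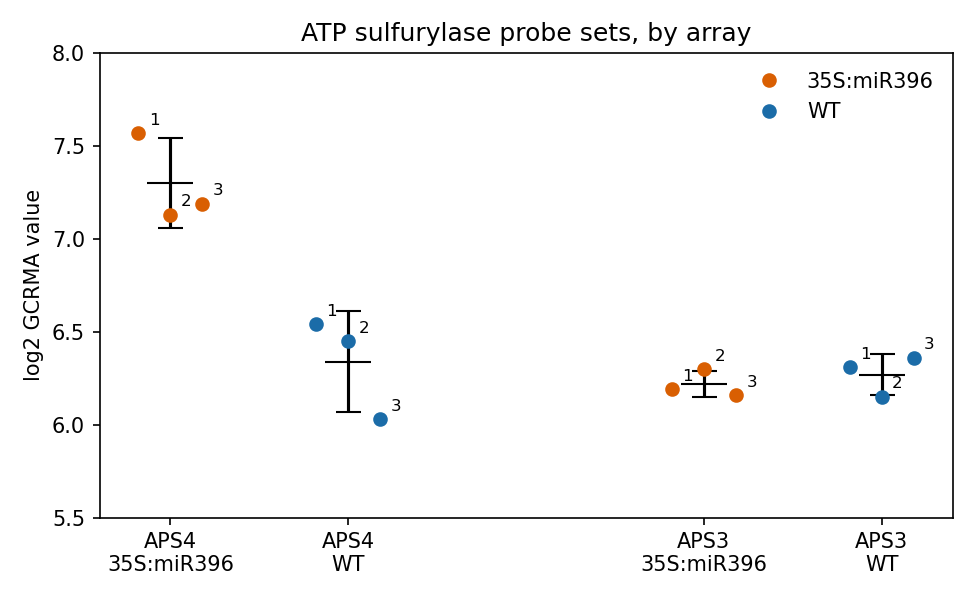
Log2 GCRMA values of APS4 and APS3 in each array (vertical axis), 35S:miR396 left of WT for each gene. Points are arrays, labelled with their replicate number, and bars give the mean ± SD of 3 arrays. The lowest 35S:miR396 value of APS4 is 7.13 and its highest WT value is 6.54, while the APS3 groups overlap and all lie between 6.15 and 6.36.

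Of the 2 genes 1 was thus called, at an adjusted p under 0.05, where 25% of all tested probe sets were called and 12.7% were called higher in 35S:miR396. Groups of 3 that do not overlap, with 35S:miR396 on top, were found at 21.5% of the tested probe sets. A share over 2 genes cannot be set against these percentages. The median log2 fold change of all tested probe sets was -0.01, and their median absolute log2 fold change was 0.21. The log2 fold change of APS4 ranked 413 of 11364 from the top, so that 3.63% of the tested probe sets had a higher one. The absolute change of APS3 was smaller than that of 85.1% of them. APS4 also varied more between replicates: its pooled SD within groups was 0.25, above that of 84.5% of the tested probe sets, while that of APS3 was 0.09, and 26.8% of the tested probe sets had a smaller one.

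**Figure D2:**
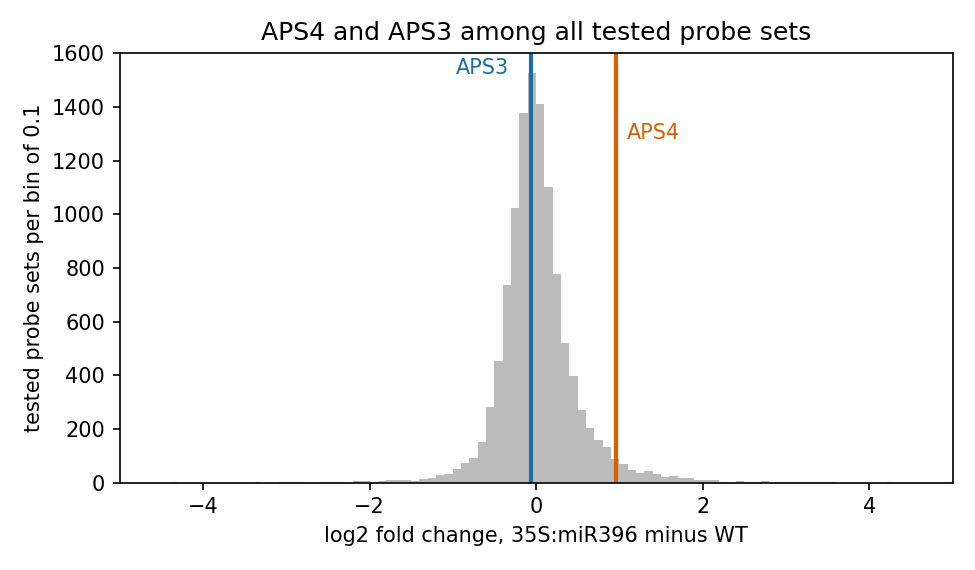
Number of tested probe sets (vertical axis) per bin of 0.1 in log2 fold change, 35S:miR396 minus WT (horizontal axis). The vertical lines mark APS4 at 0.96, in the upper flank, and APS3 at -0.06, near the middle.

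APS4 and APS3 lay further apart in every 35S:miR396 array than in any WT array. Within an array, the log2 value of APS4 minus that of APS3 was 1.37, 0.83 and 1.03 in replicates 1, 2 and 3 of 35S:miR396, against 0.23, 0.29 and -0.33 in WT. The change in this difference was 1.01 on the log2 scale (exact permutation test over the 6 arrays, two-sided, p = 0.1, for the single pair compared). This is the smallest p that 3 arrays against 3 allow, so the difference could not reach 0.05. The 2 probe sets have different probes, so their values within a group do not say which transcript was more abundant. The probe sequences were not used here, and whether either probe set also takes up transcripts of other ATP sulfurylase genes was not tested.

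The tested genes with the pattern most like that of APS4 over the 6 arrays were AT5G24610, DI21 and AT1G74410. Likeness was the root mean square difference in log2 value after each probe set's own mean was subtracted, over 6228 other tested probe sets that name 1 gene. It was 0.047 for AT5G24610, 0.048 for DI21, a gene named for its induction by drought, and 0.089 for AT1G74410, where the median over all compared probe sets was 0.54. DI21 had log2 values of 12.41, 11.92 and 12.03 in 35S:miR396, against 11.37, 11.40 and 10.88 in WT. As in APS4, replicate 1 was the highest in 35S:miR396 and replicate 3 the lowest in WT. The log2 fold changes of AT5G24610, DI21 and AT1G74410 were 0.95 ± 0.15, 0.90 ± 0.17 and 1.05 ± 0.20 (SE). They were selected for their likeness to APS4 in these same arrays, so their values are no separate result. AT1G74410 reached the log2 value of 4 needed for testing only in 35S:miR396, at 4.55, 4.17 and 4.39 against 3.59, 3.43 and 2.94 in WT. It was thus among the compared genes only because it was high there. The genes nearest to APS3 were AT1G50140, AT5G44720 and PFI, a tubulin-folding cofactor, at differences of 0.025, 0.027 and 0.027, where the median was 0.18.

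**Figure D3:**
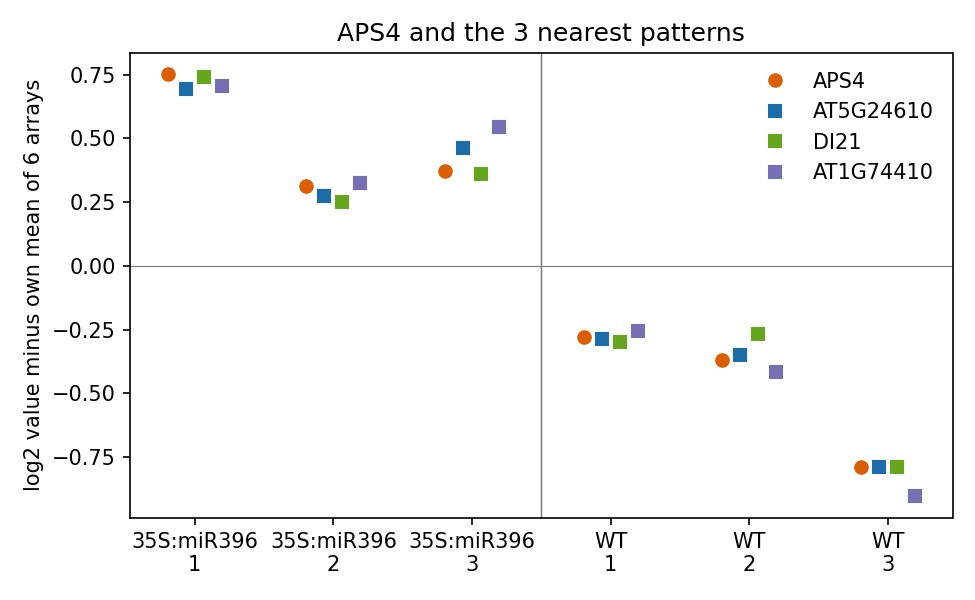
Log2 values minus each gene's own mean over the 6 arrays (vertical axis) of APS4 and the 3 genes nearest to it, for each array of 35S:miR396 and WT (horizontal axis, by replicate number). Circles are APS4 and squares the other genes. In all 4 genes replicate 1 is the highest in 35S:miR396 and WT replicate 3 is the lowest of the 6 arrays.

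The genes next to APS4 and APS3 on their chromosomes were looked up by their order in the TAIR10.1 gene table. Of the 5 protein-coding genes on each side of APS4, a probe set was named for 5 of 10, and 4 were tested, of which AT5G43830 and AT5G43745 rose (log2 fold changes 0.73 ± 0.13 and 0.70 ± 0.18, SE). AT5G43745 reached the log2 value of 4 needed for testing only in 35S:miR396, at 4.39, 4.04 and 4.26 against 3.72, 3.70 and 3.18 in WT. It was thus tested only through the group in which it was high. The calls of AT5G43830 and AT5G43745 were both lost with no filter on low values. That of AT5G43745 was lost as well without WT replicate 1 (0.79), 2 (0.78) or 3 (0.52) and when replicate 1 (0.62) or 3 (0.68) of 35S:miR396 was left out. Over the array 25% of tested probe sets were called, 12.7% higher and 12.3% lower in 35S:miR396, and counts over so few neighbours, here and around APS3, cannot be set against these shares. The nearer neighbour AT5G43790 stood at -0.14 ± 0.15 (SE), and AT5G43770 lay at the array's floor, within 0.1 of the lowest value, in all 6 arrays. Around APS3, a probe set was named for 4 of 10 neighbours, and 2 of them were tested. NRPE7, a subunit of a plant-specific RNA polymerase, rose by 0.39 ± 0.11 (SE), and AT4G14695 fell by 1.11 on the log2 scale. The call of NRPE7 was lost in 8 of 13 alternative fits, among them those without WT replicate 1 (0.40), 2 (0.43) or 3 (0.33) and those in which replicate 1 (0.31) or 3 (0.40) of 35S:miR396 was left out.

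The rest of sulfate assimilation could be followed at few steps. A list of 62 other genes held 12 sulfate transporters, 4 genes of sulfate reduction, 11 of APS kinase, sulfation and sulfite oxidation, 13 of cysteine synthesis, 8 of glutathione and methionine synthesis, 9 markers of sulfur deficiency and 5 regulators. The annotation named a probe set for only 5 of these 62, and 4 of the 5 were tested. No transporter, no gene of cysteine synthesis and no regulator was among them. None of the 4 was called by limma at an adjusted p under 0.05, where 25% of all tested probe sets were called, and 1 of the 4, CBL, had an unadjusted p under 0.05. Their median log2 fold change was 0.07. A share over 4 genes cannot be set against that of the array.

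SIR, the sulfite reductase that works downstream of ATP sulfurylase in the plastid, had log2 values of 9.65, 9.69 and 9.54 in 35S:miR396, against 9.58, 9.50 and 9.60 in WT. The groups overlapped (log2 fold change 0.07 ± 0.07, SE), and the 95% interval of the fold ran from 0.942 to 1.17. PAPST1, listed by the annotation as TAAC, carries activated sulfate out of the plastid towards sulfation reactions. It stood at 0.05 ± 0.10 (SE), with overlapping groups. SDI2 (AT1G04770), a homologue of the sulfur deficiency gene SDI1, had log2 values of 6.46, 6.93 and 6.61 in 35S:miR396, against 6.24, 6.77 and 6.79 in WT, so the groups overlapped here as well (0.07 ± 0.19, SE). BGLU28, a beta-glucosidase gene strongly induced by sulfur starvation, was not tested, since its highest value in the 6 arrays was 2.35, within 0.1 of the lowest on the array. The remaining 7 sulfur deficiency markers, among them SDI1, were not analysed here.

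CBL, cystathionine beta-lyase of methionine synthesis, had log2 values of 9.37, 9.04 and 9.08 in 35S:miR396, against 8.91, 8.77 and 8.85 in WT. Its groups did not overlap, yet the log2 fold change of 0.32 ± 0.10 (SE) did not pass the test (adjusted p = 0.0529 by limma). The adjusted p fell under 0.05 in 5 of the alternative fits, among them the one without replicate 2 of 35S:miR396 (log2 fold change 0.38, adjusted p = 0.0318), and its range over the alternatives was 0.0164 to 0.166.

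To widen the view beyond these steps, a further list took every gene that the annotation names and whose symbol or synonym in the gene table holds sulf, sulph, thiol, methionine or glucosinolate, without aminopeptidases. This list of 20 genes was drawn after the values had been opened. Of the 20, 14 were tested, 2 rose, 2 fell and 10 did not pass, a share of 28.6% called beside 25% of all tested probe sets (12.7% higher and 12.3% lower). The median log2 fold change was 0.09. Of these 4 calls, 3 were in methionine sulfoxide reductases, enzymes that turn oxidised methionine back into methionine. The list held 5 genes of this kind and 4 were tested, of which 1 rose and 2 fell, too few to set against the share of the array.

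MSRB9, a methionine sulfoxide reductase of the B type, had log2 values of 9.47, 10.09 and 9.91 in 35S:miR396, against 11.12, 10.85 and 10.93 in WT. The groups were apart, and MSRB9 fell by 1.14 on the log2 scale, to 0.454 of its WT level (adjusted p = 0.00485 by limma). MSRA5, a member of the A type, had log2 values of 7.60, 7.79 and 7.72 in 35S:miR396, against 8.20, 8.10 and 8.16 in WT, and fell by 0.45 (adjusted p = 0.0105 by limma). MSRB5 went the other way. It had 9.15, 9.29 and 9.30 in 35S:miR396, against 8.52, 8.48 and 9.07 in WT, so that WT replicate 3 lay close to the 35S:miR396 arrays, and rose by 0.56 ± 0.16 (SE, adjusted p = 0.0407 by limma). The call of MSRB5 was lost without WT replicate 1 (0.47) or 2 (0.45) and when replicate 1 (0.60), 2 (0.53) or 3 (0.53) of 35S:miR396 was left out. It was also lost if the variance prior had no trend or low values were not filtered. MSRB3 stood at 0.23 ± 0.14 (SE) with overlapping groups, and MSRB6 was too dim to be tested.

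Among genes of cysteine breakdown and sulfur delivery, LCD, an L-cysteine desulfhydrase that frees sulfide from cysteine, had log2 values of 6.61, 6.15 and 6.45 in 35S:miR396, against 5.88, 5.77 and 5.92 in WT. All 35S:miR396 arrays were above all WT arrays, with replicate 2 the lowest of its group, and LCD rose by 0.55 ± 0.13 (SE, adjusted p = 0.0265 by limma). This call was lost without WT replicate 1 (0.56), 2 (0.50) or 3 (0.58), when replicate 1 (0.44) or 3 (0.52) of 35S:miR396 was left out, and if low values were not filtered. STR18, a sulfurtransferase, had 8.27, 7.13 and 7.94 in 35S:miR396, against 7.05, 7.35 and 6.89 in WT. Its replicate 2 of 35S:miR396 lay below WT replicate 2, and it did not pass the test (0.69 ± 0.28, SE, adjusted p = 0.111; 0.00732 to 0.34 over the alternatives). It passed when that array was left out (1.01) and, over all 6 arrays, with array weights (0.70). CPNIFS, the plastid cysteine desulfurase that feeds iron-sulfur clusters, stood at 0.18 ± 0.15 (SE). SUFE2, an activator of that enzyme, did not reach the filter, with 4.27, 3.66 and 4.03 in 35S:miR396 against 3.16, 3.27 and 3.35 in WT.

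None of the 4 tested genes of methionine metabolism passed in the fit as reported. MGL, methionine gamma-lyase, which breaks methionine down, had log2 values of 5.83, 4.75 and 5.25 in 35S:miR396, against 4.60, 4.06 and 4.59 in WT, at 0.86 ± 0.28 (SE, adjusted p = 0.0631 by limma). The groups did not overlap, and replicate 2 was the lowest of both. MGL passed when replicate 2 of 35S:miR396 was left out (1.12) and, over all 6 arrays, with the replicate block (0.86) and with array weights (1.00), and its adjusted p ran from 0.00872 to 0.237 over the alternatives. MMT, which makes S-methylmethionine, stood at -0.30 ± 0.12 (SE), SAMDC, an enzyme on the way from S-adenosylmethionine to polyamines, at 0.17 ± 0.07, and SAMTL, a gene named as a transporter-like protein for S-adenosylmethionine, at -0.17 ± 0.15. Of these 3, SAMDC passed with array weights (0.28). The thiol redox genes GR1 (glutathione reductase) and SRX (sulfiredoxin) stood at -0.05 ± 0.08 and 0.01 ± 0.11 (SE). Of the glucosinolate transporters, GTR1 stood at -0.06 ± 0.15 (SE) with overlapping groups. GTR2 did not reach the filter, with 4.21, 3.55 and 3.41 in 35S:miR396 against 2.74, 2.29 and 2.84 in WT. The other untested genes of the list, OASA2, GILT and a sulfotransferase gene (AT2G03770), lay at the array's floor.

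**Figure D4:**
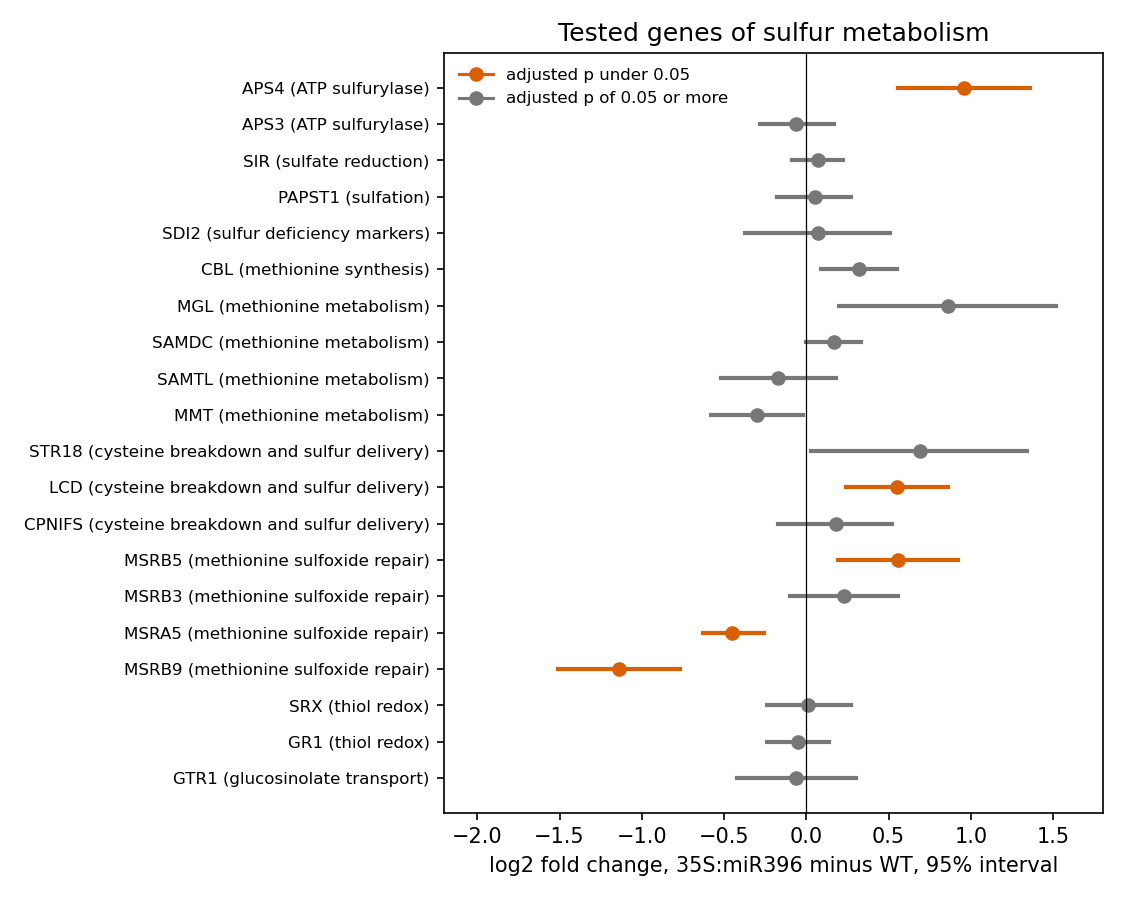
Log2 fold changes, 35S:miR396 minus WT (horizontal axis), with 95% intervals from limma, of the tested genes of sulfur metabolism, grouped by role (vertical axis). Orange marks an adjusted p under 0.05. APS4 lies at 0.96 and APS3 at -0.06, and the called methionine sulfoxide reductases run from -1.14 for MSRB9 to 0.56 for MSRB5.

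Targets of further microRNAs could be read at few genes. The annotation named a probe set for 7 of 74 such genes. Of the 7, 4 were tested, of which 1 rose, none fell and 3 did not pass. Over all tested probe sets 25% were called, and a share over 4 genes cannot be set against that. The gene that rose was PHV, a homeodomain factor targeted by miR165 and miR166, with log2 values of 4.74, 4.94 and 4.78 in 35S:miR396, against 4.16, 4.28 and 4.29 in WT. The groups were apart (log2 fold change 0.58 ± 0.11, SE, adjusted p = 0.0129 by limma). CCS1, the copper chaperone of superoxide dismutase and a target of miR398, had 8.30, 7.86 and 8.00 in 35S:miR396, against 7.66, 7.74 and 7.70 in WT. Its groups did not overlap, but it did not pass (0.36 ± 0.12, SE, adjusted p = 0.0631 by limma), except without replicate 2 of 35S:miR396 (0.45) and with array weights (0.32). AGL16, a MADS-box gene targeted by miR824, stood at 0.17 ± 0.14 (SE). LCR, an F-box gene targeted by miR394, had 7.04, 7.07 and 7.03 in 35S:miR396, against 7.05, 7.04 and 7.03 in WT, a log2 fold change of 0.00 ± 0.07 (SE).

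The direction of the APS4 rise was the same in all 13 alternative fits. Where 1 array was left out this was fixed beforehand, since the APS4 groups did not overlap. Changing only the filter, variance prior or replicate block could not alter the log2 fold change of 0.96. The rise of APS4 passed the test in 12 of the 13 fits. Its log2 fold change ran from 0.80 without WT replicate 3 to 1.06 without WT replicate 1, and it was 1.04 without replicate 2 of 35S:miR396 (adjusted p = 0.00973). The exception was the fit without a filter on low values, in which the value stayed 0.96 and the adjusted p was 0.0716, the highest of a range that started at 0.00265. APS3 passed in none of the 13 fits, with values from -0.12 to -0.01.

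**Figure D5:**
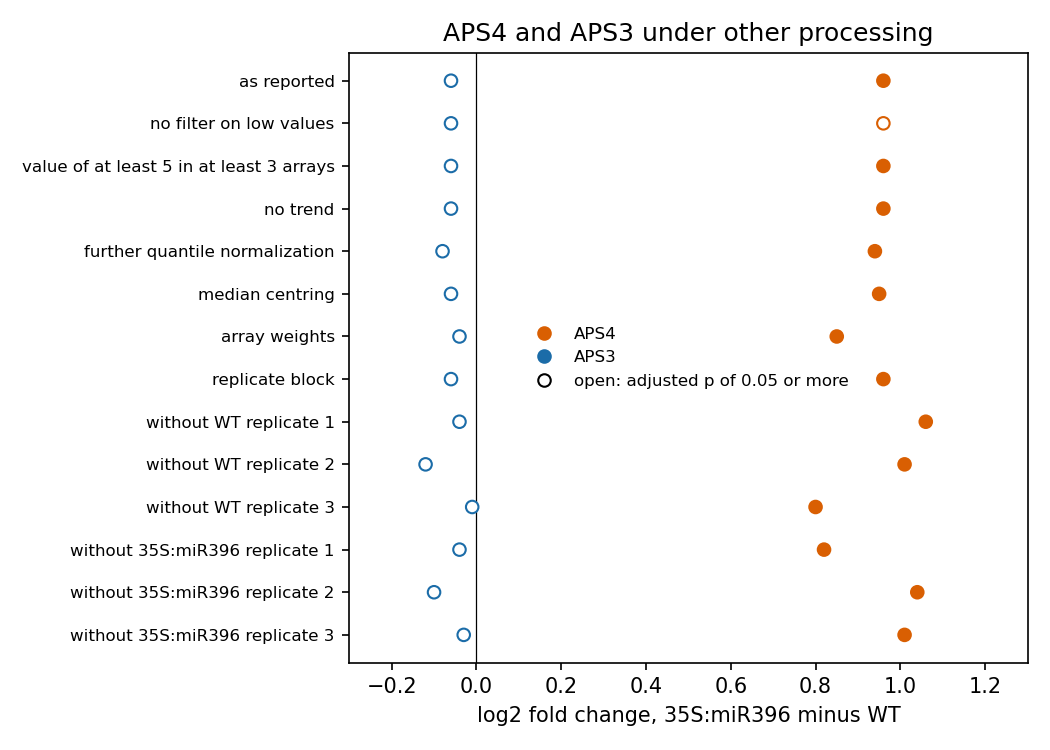
Log2 fold changes, 35S:miR396 minus WT (horizontal axis), of APS4 (orange) and APS3 (blue) as reported and under each alternative (vertical axis). Filled points have an adjusted p under 0.05. APS4 lies between 0.80 and 1.06 and is open only with no filter on low values, and APS3 lies between -0.12 and -0.01 and is open throughout.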

How the data were processed

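The authors deposited 1 table of log2 values per probe set, 1 column per array, and GCRMA was used, per the submitters' processing notes (its version is not given in the sources used here). GCRMA corrects background, normalizes between arrays and summarises probes, so dim probe sets sit at a floor and a change in total RNA per cell cannot be seen. RNA was labelled with biotin from the 3' end, per the labels. Precision is limited by how many arrays there are.

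Of 22810 probe sets, 64 controls were left out and 11364 that reached a log2 value of 4 in 3 or more of the 6 arrays were tested. R 4.3.3 and limma 3.58.1 (lmFit, eBayes with a trend, no replicate block, two-sided) gave fold changes, moderated SE and p-values adjusted over all tested probe sets (Benjamini-Hochberg, called under 0.05). The fit was also run on simulated data. Far fewer probe sets were changed there than were called here, so that run does not check the calls. Genes were named from the platform annotation, which gives 1 gene for 13513 probe sets, matched by gene identifier to the TAIR10.1 table. A listed gene took its brightest probe set.

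Named are both measured ATP sulfurylase genes, called pathway and microRNA target genes with up to 2 more per list, the 3 nearest patterns per member, the keyword list and the neighbours. The keyword list and the neighbours were added after the values were seen. The microRNA targets that did not pass were on the planned list, but the naming rule covers only called ones, so the choice to name them came later. Members and lists were chosen with earlier results of these data known. Alternatives changed the filter, variance prior, normalization, array weights, replicate block or arrays used.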

Additional observations from a re-analysis of the deposited data

How the results depend on the processing

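APS4 lost its call in 1 of 13 alternatives: where low values were not filtered it stood at 0.96 (adjusted p = 0.0716), and 0 ATP sulfurylase genes were called by limma, although the unadjusted p of APS4 was under 0.05. There the number of called probe sets was 941, against 2838 as reported and 4749 with array weights. Leaving out single arrays gave 1052 to 3813 called probe sets, the lowest without WT replicate 2 and the highest without replicate 2 of 35S:miR396, and 1 ATP sulfurylase gene each time. Of the sulfate assimilation list, 1 gene, CBL, was called with a further quantile normalization, with median centring, with array weights and with the replicate block, and 0 to 1 when single arrays were left out. Of the microRNA targets, 2 were called with array weights, 1 to 2 when single arrays were left out, and 0 where a log2 value of at least 5 was required, since PHV was then not tested. Of the keyword list, where 4 genes were called as reported, 2 were called if low values were not filtered, 7 with array weights and 2 to 5 when single arrays were left out. The change in the difference between APS4 and APS3 ran from 0.81 to 1.14 without single arrays. Whether equal replicate numbers paired the samples cannot be settled with 3 samples per group. The deviations of replicates 1, 2 and 3 of 35S:miR396 correlated at 0.40, -0.0918 and 0.139 with those of the same number in WT. Across unlike numbers the correlations ran from -0.479 to 0.354. With the replicate block APS4 stood at 0.96 (adjusted p = 0.00705 by limma) and 2844 probe sets were called. Dim genes near the floor (BGLU28, OASA2) could show no fall.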
